A study of Mus musculus with 10 samples.

Results

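The genes described are the nuclear-encoded subunits of respiratory complexes II, III, IV and V, with cytochrome c as the carrier between complexes III and IV, measured in mouse liver. Members were the rows of the deposited table with the symbols Sdha, Sdhb, Sdhc, Sdhd, Cyc1 or Cycs, or with a symbol that starts with Uqcr, Cox4 to Cox8 or Atp5, without entries ending in -ps. This gave 49 of 24972 genes, namely 4 of complex II, 9 of complex III with Cyc1, 18 of complex IV, 17 of complex V and Cycs alone. Respiratory complexes sit in the mitochondrial inner membrane and pass electrons from metabolic fuels to oxygen. Complex II oxidises succinate, complex III passes electrons to cytochrome c, complex IV hands them to oxygen, and complex V, the ATP synthase, uses the resulting proton gradient to make ATP. Hepatocytes rely on this chain for gluconeogenesis, urea synthesis and the oxidation of fatty acids.

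Liver RNA came from tumour-bearing mice labelled as wild type, 4 libraries from mice with a T cell-low tumour of the line 6419c1 and 6 from mice with a T cell-high tumour of the line 6555c3. Both lines derive from KPC pancreatic ductal adenocarcinoma, a mouse model of pancreatic cancer, and each group rests on a single line, so that line and T cell class cannot be told apart. The labels do not give the mice's age, sex or site of the tumour, and do not say whether each library is its own animal, so p-values measure only how these libraries scatter, and that scatter may be technical. The comparison asks how the liver differs between hosts of tumours that hold few or many T cells.

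Values are the authors' scaled gene counts from 3' end libraries, called scaled counts here, with totals of 7000659 to 8257373 per library and 13370 to 14300 genes above 0. Depth in reads is unknown. Liver identity was clear, with 8 of 9 hepatocyte markers in the table and their sum at 459479 to 626245 scaled counts for T cell-low, against 282645 to 561636. T cell-high 1, 3, 5 and 6 stand apart from all others in genes outside the respiratory chain. Hbb-bs, a beta globin, had 3465 to 9359 scaled counts in these 4 and 16.2 to 215 in the other 6, and H2-L was listed at 0 in the 4 against 307 to 1477. Results are therefore also given without them, from a fit of the remaining 6 libraries (the 6-library fit), in which limma called 0 of all genes. T cell-low 1 stands apart from its own group as well: over genes it correlated at 0.917 to 0.956 with the T cell-high libraries and at 0.835 to 0.901 with T cell-low 2, 3 and 4, a description of libraries that share a liver profile. In bulk tissue, fewer cells of a type and less RNA per cell cannot be told apart.

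Promoter stretches are shown for members on both sides of the result, 2 that fell in T cell-low livers (Atp5g3 and Atp5j) and 2 that did not pass the test (Cox6a1 and Cycs). Nuclear respiratory genes are known targets of NRF1, of ETS factors such as GABP and of the oestrogen-related receptors (ERR). Each stretch is the 170 bases before the annotated start (RefSeq, GRCm38.p6, minus strand, written 5′ to 3′ along the gene) with motif letters in capitals. The searched letters, on both strands, were GCATGCG for NRF1, CCGGAAG for ETS, AAGGTCA for the ERR core and ATGGCGG for YY1. Windows of 300 bases hold them in 4.01%, 9.93%, 5.38% and 4.69% of 27025 genes. Among the 8769 tested genes with a window the shares were 7.42%, 20.4%, 4.15% and 9.73%.
Atp5g3, chr2:73911327-73911496: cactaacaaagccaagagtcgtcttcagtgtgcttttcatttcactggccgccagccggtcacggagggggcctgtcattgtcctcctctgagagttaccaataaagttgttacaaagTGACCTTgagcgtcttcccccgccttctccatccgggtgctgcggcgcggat
Atp5j, chr16:84834977-84835146: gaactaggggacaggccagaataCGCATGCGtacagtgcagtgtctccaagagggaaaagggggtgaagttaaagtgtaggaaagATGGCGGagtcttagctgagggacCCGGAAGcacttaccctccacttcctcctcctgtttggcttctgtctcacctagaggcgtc
Cox6a1, chr5:115348959-115349128: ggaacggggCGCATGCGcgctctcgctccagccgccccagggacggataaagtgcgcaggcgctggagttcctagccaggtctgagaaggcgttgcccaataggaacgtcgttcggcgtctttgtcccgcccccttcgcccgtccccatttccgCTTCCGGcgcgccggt
Cycs, chr6:50566570-50566739: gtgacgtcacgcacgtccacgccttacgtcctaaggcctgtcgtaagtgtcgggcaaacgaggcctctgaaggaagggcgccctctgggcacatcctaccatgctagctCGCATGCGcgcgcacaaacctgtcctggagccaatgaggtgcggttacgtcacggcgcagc
The Atp5g3 stretch holds the ERR letters, reversed, from 52 bases before the start. Atp5j holds the NRF1 letters on both strands (overlapping matches, the first from 147 bases before the start; the stretch belongs to 1 of its 2 windows), the YY1 letters at 85 and the ETS letters at 61. Cox6a1 holds the same overlapping NRF1 letters at 161 and reversed ETS letters at 16, and Cycs has them at 61. Matches describe letters and show no binding, and they occur here in promoters of genes that fell and of genes that did not pass. Only windows that held a match were shown. Of the other members that fell, Sdha, Cox5b, Cox7a1, Atp5f1 and Atp5g1 held none of the searched letters in their windows. Uqcrb and Uqcrc2 had no window. Cox7a2l, which rose, held none of the letters either. A window was given for 34 of the 43 tested members (79.1%), under the 80% needed for a comparison over the set, so that comparison is void.

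Of the subunit transcripts of complexes II to V that passed the test, all but 1 were lower in T cell-low livers. Of 43 members that could be tested, 9 fell, 1 rose and 33 did not pass (limma on log2 of the scaled count plus 1, Benjamini-Hochberg adjusted p below 0.05 over 11110 genes). Over all genes tested 7.39% fell and 5.39% rose. The log2 fold change, T cell-low minus T cell-high throughout, was below 0 in 36 of the 43 (49.8% of all genes tested), with a median of -0.48 against 0.003 for all genes. Those that fell were Sdha of complex II, Uqcrb and Uqcrc2 of complex III, Cox5b and Cox7a1 of complex IV, and Atp5f1, Atp5g1, Atp5g3 and Atp5j of complex V. Cox7a1 reached the mean of 10 needed for a test only through the T cell-high group (mean 4.56 for T cell-low, 17.0 for T cell-high). The one that rose was Cox7a2l, which encodes a factor that joins complexes III and IV. Scaling every library to the same total moved the median of all genes to -0.115, and then 16 members fell and 0 rose. At an unadjusted p below 0.05 were 28 of 43 members and 3813 of 11110 genes. That rescaling moved the split over all genes from 821 lower and 599 higher to 1068 lower (9.61%) and 421 higher (3.79%). With estimated library weights 22 members fell and 1 rose (16.5% and 12.9% of all genes). With no filter on low values 2 fell and 0 rose (3.52% and 2.48%), and with each library's trend on transcript length removed 6 fell and 1 rose (6.44% and 5.67%). Taking out that length trend also moved the median over members from -0.48 to -0.301, and 32 of the 43 were then below 0. The median of all genes was then 0.0512.

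**Figure D1:**
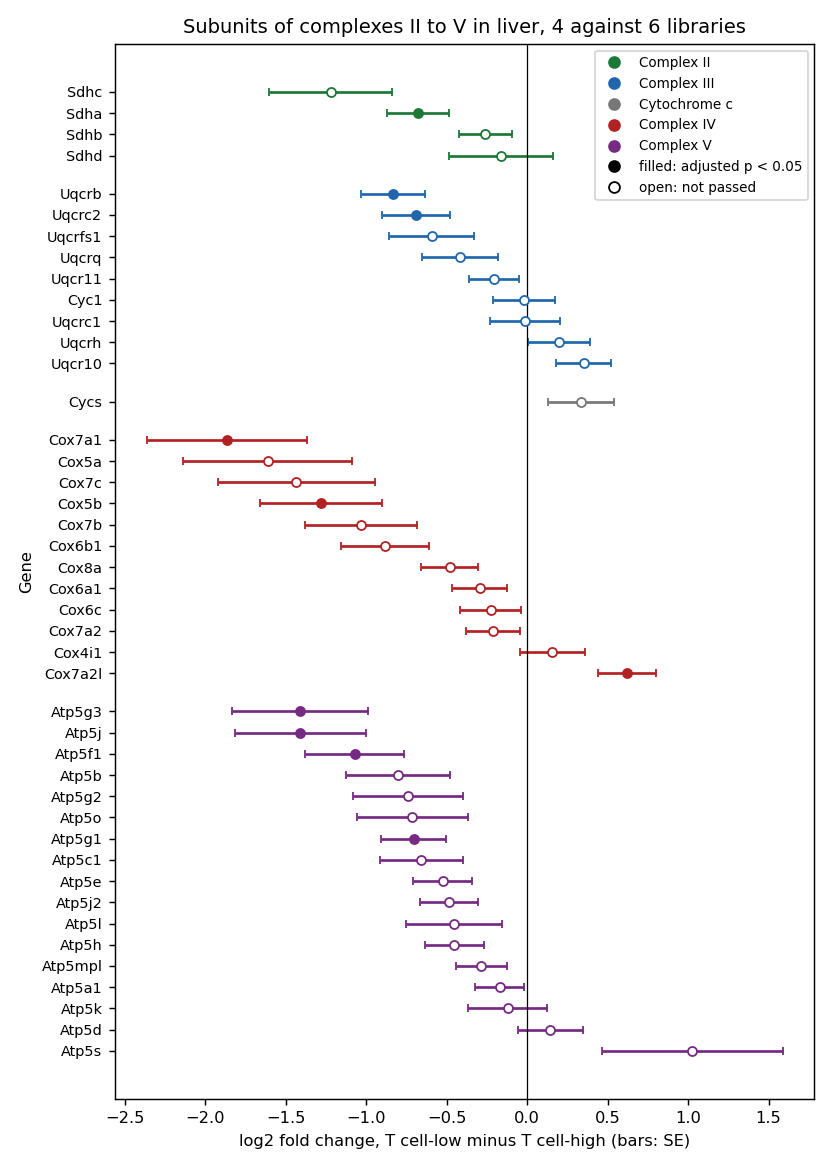
Log2 fold change (T cell-low minus T cell-high, x axis) of the 43 tested members by complex, with standard error bars, filled where the adjusted p was below 0.05. Most points lie left of 0, from -1.86 for Cox7a1 to 1.03 for Atp5s. Both of these passed the filter on low values through the group where they were higher.

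These calls were lost with most of the libraries left out singly. With T cell-low 2, 3 or 4 left out, limma called 0 members in either direction. At an unadjusted p below 0.05 were 16, 19 and 22 of 43 members, beside 2612, 3283 and 3062 of 11110 genes. Over all genes, 0.603%, 3.06% and 0.963% were then called lower and 0.369%, 1.49% and 0.441% higher. With T cell-high 1, 3 or 5 left out, limma also called 0 members in either direction. Then 19, 18 and 18 members, beside 3190, 3208 and 3146 of all genes, had an unadjusted p below 0.05. The shares of all genes called were 2.39%, 2.11% and 2.04% lower and 1.51%, 1.32% and 1.29% higher. Without T cell-high 6 limma called 1 member lower and 0 higher (2.39% and 1.63% of all genes), and without T cell-high 4 it called 9 lower and 0 higher (5.9% and 3.93%). Those 9 were not the same 9 as with all libraries: only 6 of the 10 members called there were kept. Leaving out T cell-low 1 gave 17 lower and 1 higher (17.2% and 15.4%), and leaving out T cell-high 2 gave 18 lower and 1 higher (11.8% and 8.67%). For the 10 called members, the highest adjusted p with a library left out ran from 0.0819 (Uqcrb) to 0.155 (Atp5g3).

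Complex by complex, the T cell-high libraries differed among themselves. Each library was summarised by how far a complex's tested members lay from their T cell-high mean on the log2 scale (median over members). For complex IV it was -0.304, -0.954, -0.929 and -0.502 in T cell-low 1 to 4. In T cell-high 1, 3, 5 and 6 it was 0.247, 0.266, 0.231 and 0.055, and in T cell-high 2 and 4 it was -0.368 and -0.176. T cell-high 2 thus lay below T cell-low 1 for complex IV. Complex V ran from -0.97 in T cell-low 2 to -0.246 in T cell-low 1, with -0.403 in T cell-high 2 and -0.248 in T cell-high 4, so that both groups overlapped. Complex III ran from -0.413 to -0.19 for T cell-low and from -0.224 to 0.29 for T cell-high. For complex II the range was -0.577 to -0.39 against -0.424 to 0.412. The median fold change was -0.469 for complex II, -0.204 for complex III, -0.682 for complex IV and -0.524 for complex V.

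**Figure D2:**
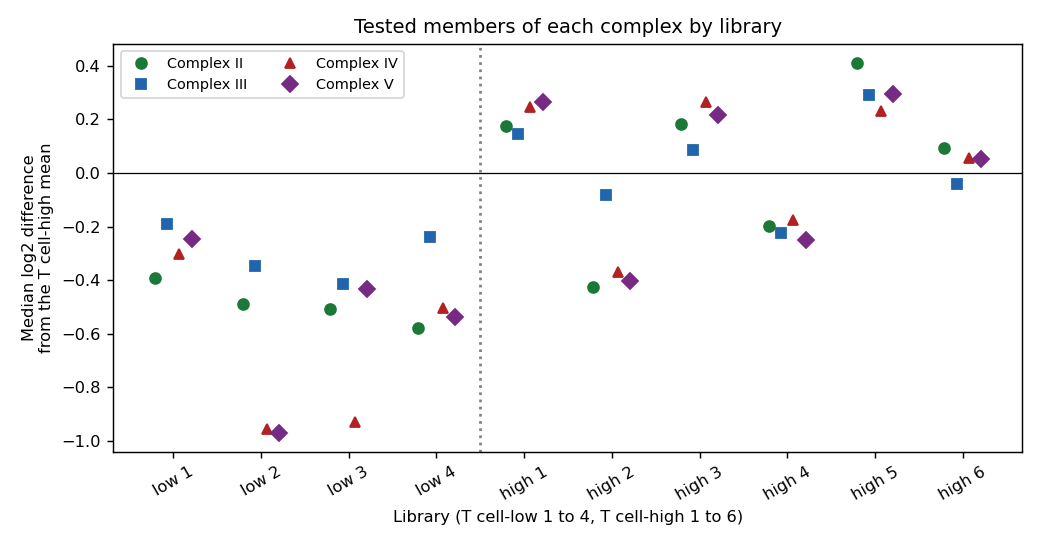
Distance from the T cell-high mean on the log2 scale (y axis), as the median over the tested members of each complex, for each of the 10 libraries (x axis). T cell-high 2 and 4 lie below 0 for all 4 complexes, and T cell-high 1, 3 and 5 lie above it.

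Summed over members, the scaled counts gave a plainer order. The sum over all 49 members ran from 77698 to 85926 for T cell-low and from 90856 to 116456 for T cell-high, or 0.974% to 1.22% against 1.28% to 1.55% of the scaled total, and the groups did not overlap. Complex II summed to 5651 to 6710 against 7389 to 8371 and complex V to 27810 to 35863 against 37803 to 51675, both without overlap. Complex III summed to 18831 to 19332 against 19757 to 23029, also without overlap but with a narrow gap. Complex IV summed to 19765 to 23844 against 23496 to 31987, where T cell-high 2 with 23496 lay under T cell-low 1 and 4 with 23544 and 23844. A sum is led by its most abundant members, and no test was run on it.

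Within the T cell-high group, 22 of 43 members (51.2%) had all of T cell-high 1, 3, 5 and 6 above both T cell-high 2 and 4, where 21.8% of all genes tested did. By complex this held for 2 of 4, 4 of 9, 8 of 12 and 8 of 17 tested members of complexes II, III, IV and V. It held for 7 of the 9 members that fell, Cox7a1 and Atp5g1 being the exceptions. The call rests on these same 4 libraries and favours genes that are high in them, so the 7 are a description only. The opposite order, all 4 below both, was found for 9 of 43 members and 20.9% of all genes. Without T cell-high 1, 3, 5 and 6, which leaves only T cell-high 2 and 4 as the other side, the median over members was -0.206. The medians were -0.312, -0.185, -0.229 and -0.275 for complexes II, III, IV and V. In that comparison limma called 0 members and 0 of all genes (0% in each direction), with 3 members and 999 genes at an unadjusted p below 0.05. The 3 members were Cox7a2l, Atp5s and Atp5g1. With T cell-high 2 and 4 left out in place of the others, 22 members fell and 0 rose (13.5% and 9.94% of all genes), and the median was -0.58.

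**Figure D3:**
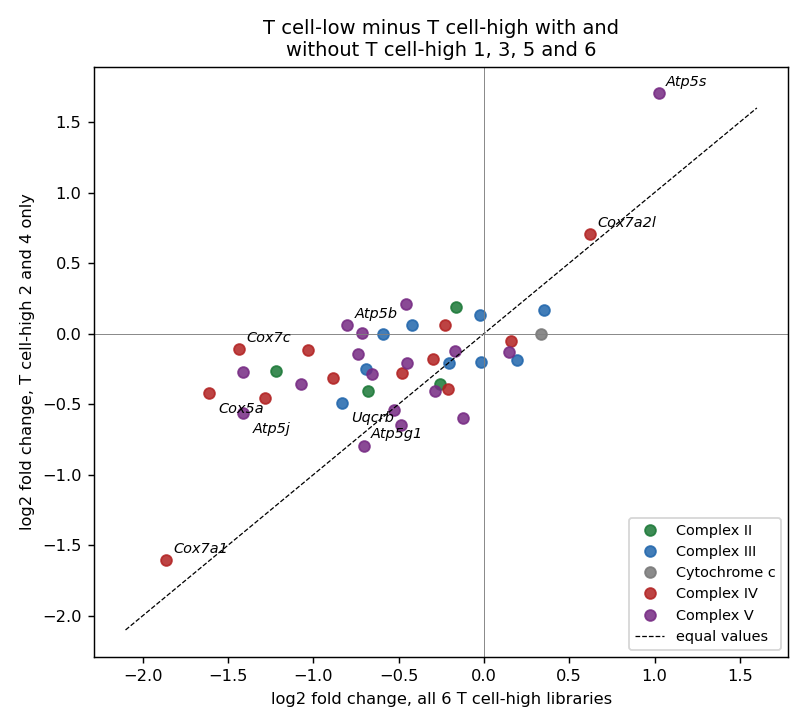
Log2 fold change of each tested member with all 6 T cell-high libraries (x axis) against that with T cell-high 2 and 4 only (y axis); the dashed line marks equal values. Members such as Cox5a and Cox7c move toward 0 on the y axis, while Cox7a1, Cox7a2l and Atp5g1 stay near the line.

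Complex II, succinate dehydrogenase, is the enzyme that belongs to both the TCA cycle and the respiratory chain. Sdha (chromosome 13, 74322254 to 74350280), the flavoprotein that oxidises succinate, had 1387, 854, 986 and 1058 scaled counts in T cell-low 1 to 4 and 1266 to 1952 (median 1770) in T cell-high libraries. T cell-low 1 lay above T cell-high 2, and all other T cell-low libraries lay below every T cell-high library. Sdha fell by 0.68 on the log2 scale (SE 0.19, adjusted p = 0.041), and the change was -0.41 (adjusted p = 0.633) without T cell-high 1, 3, 5 and 6. Sdhb, the iron-sulphur subunit, had 4753 ± 709 (SD, n = 4) against 5655 ± 453 (SD, n = 6) and did not pass (-0.26, adjusted p = 0.275). Sdhc, a membrane anchor, had 200, 116, 224 and 105 scaled counts against 173 to 635 (median 456). Its log2 fold change was -1.22 (SE 0.38, adjusted p = 0.051), and -0.27 (adjusted p = 0.817) without the 4 libraries. Sdhd, the other anchor, had 71.0 ± 11.6 against 85.4 ± 36.4 and did not pass (-0.16). In the 6-library fit Sdhb was at -0.36 and Sdhd at 0.19.

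In complex III, 2 of 9 members fell, and 7 of 9 fold changes were below 0 (7.39% and 49.8% of all genes tested). Uqcrb (chromosome 13, 66900617 to 66905378), a small subunit near the ubiquinone site, had 810, 613, 634 and 596 scaled counts in T cell-low 1 to 4 and 897 to 1486 (median 1213) in T cell-high libraries. The groups did not overlap for Uqcrb, as for 4.02% of all genes in this direction. It fell by 0.83 (SE 0.20, adjusted p = 0.0237), with -0.49 (adjusted p = 0.59) without T cell-high 1, 3, 5 and 6. Of the 50-base words in its last 400 bases, 20.7% occur in other genes, all of them with provisional Gm symbols, so reads of copies may be mixed.

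Uqcrc2 (chromosome 7, 120635176 to 120659524), a core protein of the matrix arm, had 878, 733, 597 and 738 scaled counts against 863 to 1483 (median 1311). T cell-low 1 lay just above T cell-high 2 and 4, with 875 and 863. It fell by 0.69 (SE 0.21, adjusted p = 0.0489) and the change was -0.25 (adjusted p = 0.745) without T cell-high 1, 3, 5 and 6. Pdzd9 lies on the opposite strand at its 3' end, and the use of strand in counting is not given in the sources used here. Its partner Uqcrc1 had 1454 ± 502 against 1419 ± 187 (-0.01, SE 0.22, adjusted p = 0.967). Uqcrfs1, the Rieske iron-sulphur protein, had 252 ± 31.7 against 399 ± 142 (-0.59, SE 0.27, adjusted p = 0.132), but -0.00309 without the 4 libraries.

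Next come the other complex III members. Cyc1, the haem protein that hands electrons to cytochrome c, had 496 ± 92.9 against 500 ± 72.1 scaled counts (-0.02). Uqcrq, a small subunit of the complex, had 4617 ± 874 against 6273 ± 1640 (-0.42, adjusted p = 0.221). Uqcrh, the hinge protein, had 6000 ± 356 against 5339 ± 1246 (0.20, adjusted p = 0.487). Uqcr10 had 3027 ± 492 against 2358 ± 258 (0.35, adjusted p = 0.162), and Uqcr11 had 1882 ± 209 against 2161 ± 142 (-0.20, adjusted p = 0.362). None of these 5 genes passed the test. The 6-library fit gave 0.13 for Cyc1, 0.06 for Uqcrq, -0.19 for Uqcrh, 0.17 for Uqcr10 and -0.21 for Uqcr11, and -0.20 for Uqcrc1.

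Cycs, somatic cytochrome c, had 1814, 1934, 2387 and 1583 scaled counts in T cell-low libraries and 1151 to 2185 (median 1433) in T cell-high libraries. T cell-high 2 had the highest value of its group and lay above T cell-low 1, 2 and 4. The log2 fold change was 0.33 (SE 0.20, adjusted p = 0.254) and -0.000967 without T cell-high 1, 3, 5 and 6. Of its 3' end words 39.6% occur in other genes, among them Cycs-ps2, so copies may be mixed. Cyct, the testis form, was listed at 0 in every library.

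Complex IV, cytochrome c oxidase, held the only member that rose. Of 12 tested members 2 fell, 1 rose and 9 did not pass, while 7.39% of all genes tested fell and 5.39% rose. Cox7a1, among those that fell, passed the filter on low values through the T cell-high group. Cox5b (chromosome 1, 36691449 to 36693681), a zinc-binding subunit on the matrix side, had 1399, 453, 733 and 866 scaled counts in T cell-low 1 to 4. In T cell-high 1, 3, 5 and 6 it had 2459, 2445, 2927 and 2510, and in T cell-high 2 and 4 it had 793 and 1511. T cell-high 2 lay within the T cell-low range. Cox5b fell by 1.28 (SE 0.38, adjusted p = 0.0448), with -0.46 (adjusted p = 0.728) without the 4 libraries.

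Cox5a, another matrix-side subunit, also had its highest values in T cell-high 1, 3, 5 and 6. It had 858, 175, 288 and 457 scaled counts in T cell-low 1 to 4, 326 and 775 in T cell-high 2 and 4, and 1499 to 2124 in the remaining 4. The log2 fold change was -1.61 (SE 0.53, adjusted p = 0.0577) and did not pass, and it was -0.42 (adjusted p = 0.811) without T cell-high 1, 3, 5 and 6. Gm26631 lies on the opposite strand at the 3' end of Cox5a.

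Cox7c, a small membrane subunit, had 162, 175, 159 and 178 scaled counts in T cell-low 1 to 4. T cell-high 2 and 4 had 185 and 178, and T cell-high 1, 3, 5 and 6 had 849, 576, 1298 and 431. The groups did not overlap, as for 4.02% of all genes in this direction, but T cell-high 4 and T cell-low 4 were equal to the nearest scaled count. Its log2 fold change was -1.43 (SE 0.49, adjusted p = 0.065), and -0.11 (adjusted p = 0.909) without the 4 libraries. Its 3' end is shared to 35.2% with other gene models. Cox7b had 552 ± 121 against 1226 ± 551 (-1.03, SE 0.35, adjusted p = 0.0634), with 551 and 626 in T cell-high 2 and 4. Cox6b1, which lies between the monomers of the oxidase dimer, had 736 ± 242 against 1356 ± 384 (-0.88, SE 0.28, adjusted p = 0.051). In the 6-library fit Cox7b was at -0.12 (adjusted p = 0.909) and Cox6b1 at -0.32 (adjusted p = 0.749).

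Cox7a2l (chromosome 17, 83501918 to 83517330) was the member that rose. It had 1409, 1881, 1915 and 2592 scaled counts in T cell-low 1 to 4 and 1155 to 1321 (median 1246) in T cell-high libraries, where the SD was 63.3. The groups did not overlap, as for 3.37% of all genes in this direction. The log2 fold change was 0.62 (SE 0.18, adjusted p = 0.0446). Without T cell-high 1, 3, 5 and 6 it was 0.71 (unadjusted p = 0.0454, adjusted p = 0.55). Scaled to equal totals, it kept its direction and did not pass.

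Cox7a1 and Cox7a2 are the paralogues of Cox7a2l, and no difference between the 3 was tested. Cox7a1 (chromosome 7, 30184144 to 30186078), the isoform of heart and skeletal muscle, had 9.68, 3.81, 1.35 and 3.38 scaled counts in T cell-low 1 to 4. In T cell-high libraries it had 12.3 to 23.9 (median 15.8), and the groups did not overlap, as for 4.02% of all genes in this direction. It fell by 1.86 (SE 0.50, adjusted p = 0.0333), and the change was -1.60 (adjusted p = 0.587) without T cell-high 1, 3, 5 and 6. Its level is close to the filter of a mean of 10, which it passed through the T cell-high group, so that it could only be tested because it was higher there. Cox7a2, the isoform of liver and most tissues, had 3913 ± 495 against 4535 ± 541 and did not pass (-0.21, SE 0.17, adjusted p = 0.376), with -0.39 in the 6-library fit.

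Among other isoform groups of the oxidase, the forms of liver were measured and those of other tissues were at or near 0. Cox4i1, the common form of the largest nuclear subunit, had 3521, 6750, 4416 and 4273 scaled counts against 3566 to 5245 (median 3960), and did not pass (0.16, SE 0.20, adjusted p = 0.605). Its lung form Cox4i2 was listed at 0 in 9 of 10 libraries. Cox6a1 had 3085 ± 509 against 3758 ± 315 (-0.30, adjusted p = 0.228), and its muscle form Cox6a2 was listed at 0 in all. Cox8a had 1743 ± 292 against 2420 ± 290 (-0.48, SE 0.18, adjusted p = 0.0822), while Cox8b, a form of muscle and brown fat, had 0 to 7.13. Cox6c had 4058 ± 688 against 4753 ± 784 (-0.23, adjusted p = 0.407). The 6-library fit gave -0.05 for Cox4i1, -0.18 for Cox6a1, -0.28 for Cox8a and 0.06 for Cox6c.

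Of the testis forms, Cox7b2 and Cox8c were listed at 0 in all libraries. Cox6b2 had 0.88, 17.8, 12.1 and 4.23 scaled counts in T cell-low 1 to 4, 8.97 in T cell-high 4 and 0 to 1.76 in the remaining 5, and was below the filter. These 6 forms (Cox4i2, Cox6a2, Cox6b2, Cox7b2, Cox8b and Cox8c) are the members that could not be tested.

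Complex V, the ATP synthase, has a catalytic head in the matrix, a membrane ring of c subunits that rotates, and stalks that connect them. All 17 members could be tested, of which 4 fell, 0 rose and 13 did not pass, with 15 of 17 fold changes below 0. Of all genes tested, 7.39% fell, 5.39% rose and 49.8% had a fold change below 0. The c subunit is encoded by Atp5g1, Atp5g2 and Atp5g3, whose mature proteins are the same and whose import sequences differ.

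Atp5g3 (chromosome 2, 73908447 to 73911326) had 2340, 1005, 1318 and 1904 scaled counts in T cell-low 1 to 4. T cell-high 2 and 4, with 1570 and 2266, lay within that range, and T cell-high 1, 3, 5 and 6 had 6338, 5569, 7500 and 5413. It fell by 1.41 (SE 0.42, adjusted p = 0.0473), and the change was -0.27 (adjusted p = 0.804) without the 4 libraries. Atp5g1 (chromosome 11, 96068852 to 96075670) had 1849, 1132, 1772 and 1038 against 2065 to 2688 (median 2217), the highest value being that of T cell-high 2. The groups did not overlap for Atp5g1, as for 4.02% of all genes in this direction. It fell by 0.70 (SE 0.20, adjusted p = 0.041), with -0.79 (unadjusted p = 0.0405, adjusted p = 0.549) without T cell-high 1, 3, 5 and 6. Atp5g2 had 611 ± 313 against 969 ± 286 (-0.74, SE 0.34, adjusted p = 0.142), with -0.15 (adjusted p = 0.927) in the 6-library fit. Shared 3' ends touch Atp5g1 (39.9%) and Atp5g2 (51.4%) but not Atp5g3 (0%).

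The peripheral stalk, which holds the head still, had 2 called members. Atp5j (chromosome 16, 84827866 to 84835625), a coupling factor of the stalk, had 569, 136, 231 and 229 scaled counts in T cell-low 1 to 4, 313 and 451 in T cell-high 2 and 4, and 822 to 1047 in the remaining 4. T cell-low 1 lay above T cell-high 2 and 4. It fell by 1.41 (SE 0.41, adjusted p = 0.0426), with -0.57 (adjusted p = 0.703) without the 4 libraries. Atp5f1 (chromosome 3, 105942698 to 105960099), subunit b, had 661, 323, 507 and 369 against 555 to 1424 (median 1100). T cell-low 1 lay above T cell-high 2 and 4, with 555 and 588. Atp5f1 fell by 1.07 (SE 0.31, adjusted p = 0.0413), and the change was -0.35 (adjusted p = 0.722) without T cell-high 1, 3, 5 and 6.

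The other stalk members did not pass. Atp5h, subunit d, had 2452 ± 321 against 3369 ± 535 (-0.45, adjusted p = 0.104, 3' end shared to 43%), with -0.21 (adjusted p = 0.79) in the 6-library fit. Atp5o, which binds the top of the head, had 1611 ± 696 against 2606 ± 920 (-0.71, SE 0.35, adjusted p = 0.162), and 0.00302 without T cell-high 1, 3, 5 and 6. Its 3' end words are shared to 27.2%, with Donson among the genes concerned.

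In the catalytic head, no member passed. Atp5a1, the alpha subunit, had 3546 ± 301 against 3992 ± 289 (-0.17, SE 0.15, adjusted p = 0.441), with -0.13 in the 6-library fit. Atp5b, the catalytic beta subunit, had 1590, 1099, 1031 and 1556 scaled counts in T cell-low 1 to 4, 1135 and 1356 in T cell-high 2 and 4, and 2764 to 3634 in the others. It did not pass (-0.80, SE 0.32, adjusted p = 0.105) and was 0.06 without the 4 libraries. Alpha and beta subunits stand in equal number in the head; the difference between their fold changes was not tested.

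For the central stalk, Atp5c1 (gamma) had 840 ± 204 against 1351 ± 420 (-0.66, adjusted p = 0.097). Atp5d (delta) had 1889 ± 467 against 1690 ± 300 (0.14, adjusted p = 0.638). Atp5e (epsilon) had 1970 ± 473 against 2784 ± 233 (-0.52, SE 0.18, adjusted p = 0.0693) and -0.54 without the 4 libraries. None of these passed. In the 6-library fit Atp5c1 was at -0.29 (adjusted p = 0.74) and Atp5d at -0.13.

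Small membrane subunits of the synthase, which join it into dimers and shape the cristae, made up the rest. Atp5k (subunit e) had 6432 ± 1497 against 7102 ± 2332 scaled counts (-0.12, adjusted p = 0.752), with the highest value, 11539, in T cell-high 2. Atp5l (subunit g) had 2891 ± 972 against 3987 ± 1252 (-0.45, adjusted p = 0.29, 3' end shared to 33.2%). Atp5j2 (subunit f) had 2604 ± 525 against 3609 ± 407 (-0.49, SE 0.18, adjusted p = 0.0836). Atp5mpl, a small proteolipid, had 1438 ± 121 against 1754 ± 200 (-0.28, adjusted p = 0.219). Atp5s, an accessory factor, had 18.5 ± 12.1 against 8.76 ± 5.53 (1.03, SE 0.56, adjusted p = 0.209) and passed the filter through the T cell-low group. The 6-library fit gave -0.60 for Atp5k, 0.21 for Atp5l, -0.65 for Atp5j2, -0.40 for Atp5mpl and 1.70 for Atp5s.

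**Figure D4:**
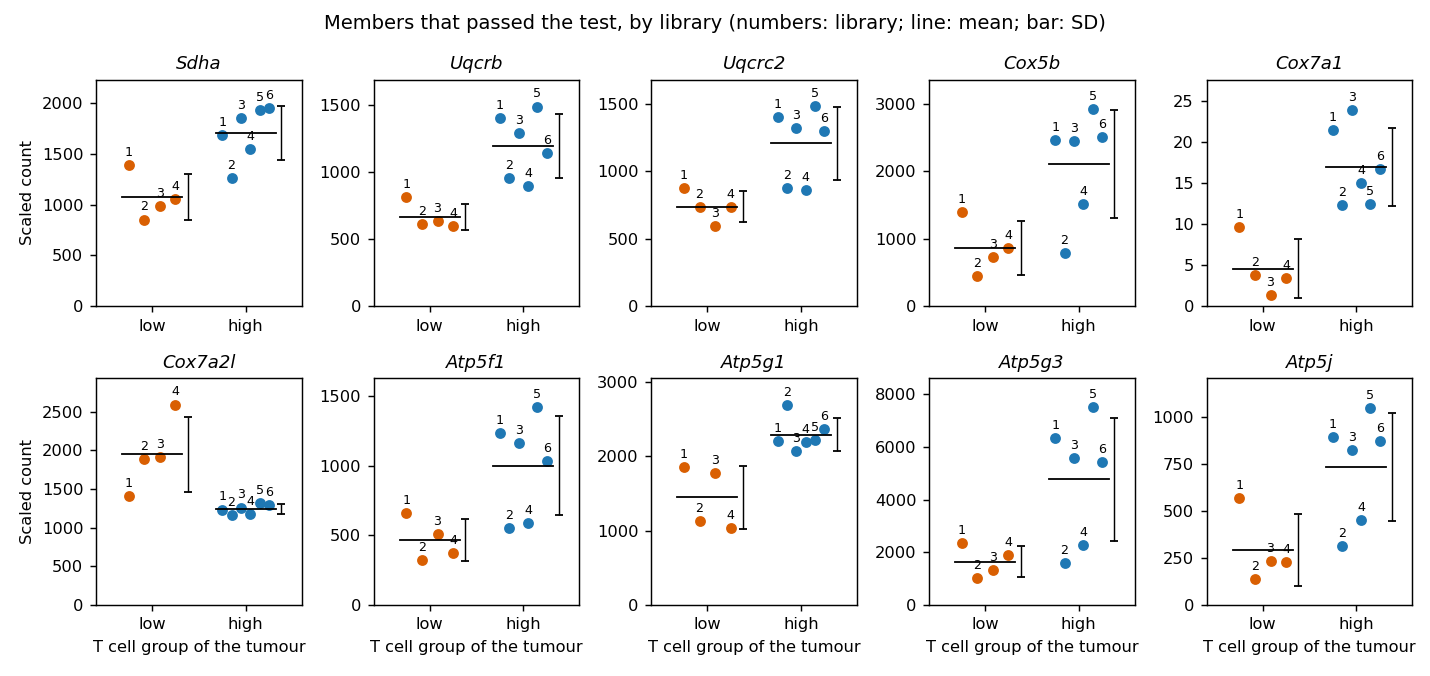
Scaled counts (y axis, from 0) of the 10 members that passed the test, by group (x axis); points are libraries with their numbers, lines are means and bars SDs. T cell-high 2 and 4 sit at the lower edge of their group in most panels, and the groups do not overlap for Uqcrb, Cox7a1, Cox7a2l and Atp5g1. Of all genes tested, 4.02% were lower and 3.37% higher without overlap, and passing the test favours such genes. Cox7a1 passed the filter on low values through the T cell-high group.

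Features outside the rule were compared next. Of the 43, 8 share at least 20% of their 3' end words with another gene, and 2 of these fell. The other 35 held 7 that fell and 1 that rose, beside 7.39% and 5.39% of all genes tested. Medians were -0.709 for shared and -0.418 for unshared ends, a difference that was not tested. Across the 43 members the fold change had a Spearman correlation of -0.01 with transcript length, given as a description of genes measured in the same libraries. That value compares members with each other and not with other genes.

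The rest of the chain was described from lists, beside which 7.39% of all genes tested fell and 5.39% rose. Of 35 tested complex I subunits, which take electrons from NADH, 12 fell and 0 rose, with a median of -0.648 (-0.398 in the 6-library fit). Ndufa9, for example, had 324 ± 89.6 against 613 ± 97.2 scaled counts (-0.94, SE 0.21, adjusted p = 0.0209), with -0.64 in the 6-library fit. Of 18 genes of pyruvate dehydrogenase and the TCA cycle 5 fell and 0 rose, with a median of -0.586 (-0.319 in the 6-library fit). Idh3b, a subunit of isocitrate dehydrogenase, had 123 ± 28.3 against 358 ± 167 (-1.42, SE 0.34, adjusted p = 0.0256), with -0.55 (adjusted p = 0.595) in the 6-library fit. The differences between these lists and complexes II to V were not tested. The 13 mitochondrially encoded subunits were not found among the 24972 genes under the symbols searched, and are not analysed here.

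Assembly factors build the complexes without staying in them. The counts below stand beside 7.39% of all genes tested that fell and 5.39% that rose. For complex II 1 of 3 tested fell and 1 rose: Sdhaf1, which protects the iron-sulphur subunit, had 187, 209, 222 and 239 against 111 to 165 scaled counts (0.64, SE 0.19, adjusted p = 0.0481), and Sdhaf4, which binds Sdha, had 37.0 ± 30.2 against 167 ± 106 (-2.08, SE 0.64, adjusted p = 0.0492). T cell-high 2 and 4, with 41.6 and 40.6, lay within the T cell-low range of Sdhaf4, 12.5 to 80.4. The 6-library fit gave -0.47 (adjusted p = 0.812) for Sdhaf4 and 0.90 for Sdhaf1. For complex III 0 of 6 passed (median -0.524), and Uqcc3 had 247 ± 52.4 against 268 ± 39.3. For complex IV 1 of 25 fell (median -0.399), namely Surf1, with 146, 107, 97.7 and 122 against 151 to 274 (-0.85, SE 0.22, adjusted p = 0.0294). For complex V 3 of 5 fell (median -0.625), namely Tmem70 (-1.12, SE 0.30, adjusted p = 0.0358), Atpaf2 (-1.08, SE 0.31, adjusted p = 0.041) and Tmem242 (-0.62, SE 0.19, adjusted p = 0.0486). In the 6-library fit these were at -0.45, -0.66 and -0.59, and Surf1 at -0.58. The list medians there were -0.363, -0.466, -0.269 and -0.572 for complexes II, III, IV and V.

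A further list held related genes that the symbols did not catch, not all of them subunits. Of the 4 tested (Ndufa4, Atpif1, Usmg5 and Dmac2) 0 passed (median -0.554, and -0.116 in the 6-library fit). Dmac2 was at -0.24, and at -0.43 in the 6-library fit. Atpif1, the inhibitor of the ATP synthase, had 311 ± 115 against 492 ± 35.5 scaled counts (-0.74, adjusted p = 0.0547). Usmg5, a small synthase subunit, had 551 ± 170 against 746 ± 305 (-0.37). Ndufa4, now placed in complex IV, had 107 ± 70.7 against 496 ± 372 (-1.89, SE 0.76, adjusted p = 0.102). T cell-high 2 and 4, with 72.4 and 82.3, lay within the T cell-low range of Ndufa4, 32.6 to 198. The 6-library fit gave 0.19 for Ndufa4, 0.46 for Usmg5 and -0.71 for Atpif1. Among 11 carriers and shuttles 1 fell, beside 7.39% of all genes tested. It was the glycerol phosphate dehydrogenase gene Gpd2 (289 ± 84.3 against 510 ± 43.4, log2 fold change -0.87, SE 0.22, adjusted p = 0.0279). Of 13 cristae and inner membrane genes 1 rose and 0 fell, beside 5.39% and 7.39% of all genes tested. The one that rose, the cristae organiser Chchd6, had 124 ± 36.3 against 55.4 ± 12.4 (1.13, SE 0.26, adjusted p = 0.0232). In the 6-library fit the medians of these lists were -0.36 (carriers) and -0.00267 (cristae), with Gpd2 at -0.86 and Chchd6 at 0.83. The cristae list also counts Scaf1, a gene of RNA processing that shares a name with the protein of Cox7a2l.

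Regulators of respiratory gene transcription had a median above 0. Of 16 tested, 1 rose and 1 fell (5.39% and 7.39% of all genes tested), and that median was 0.299. Pprc1, a coactivator of the PGC-1 family, had 24.8, 56.5, 23.9 and 84.4 scaled counts in T cell-low 1 to 4 against 8.69 to 16.7 (1.71, SE 0.41, adjusted p = 0.0247). Esrrg, an oestrogen-related receptor, had 6.48 ± 4.49 against 25.9 ± 13.4 (-1.93, SE 0.56, adjusted p = 0.0422), and it passed the filter on low values through the T cell-high group. Ppargc1a, the coactivator PGC-1 alpha, had 106, 1257, 234 and 1638 in T cell-low 1 to 4 and 121 to 305 in T cell-high libraries. T cell-low 2 and 4 were far above every other library, T cell-low 1 was below all of them, and the gene did not pass (1.18, SE 0.64, adjusted p = 0.206). Nrf1 had 30.6, 146, 54.4 and 128 against 20.7 to 37.0 (1.33, SE 0.41, adjusted p = 0.0503). Tfam, the mitochondrial DNA packaging factor, had 259 ± 46.7 against 255 ± 39.0 (0.02). The 6-library fit gave a list median of 0.242, 1.87 for Pprc1, -1.21 for Esrrg, 1.35 for Ppargc1a and 1.75 for Nrf1. Ppargc1a, Nrf1 and Tfam were picked after their values were seen, as were Atpif1 and Ndufa4 above.

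Markers of other cells moved with the groups in part, beside 5.39% of all genes tested that rose and 7.39% that fell. Neutrophil markers rose in 4 of 4 tested of 8, of which Ngp (38.6 against 1.45 on average) and Retnlg (42.1 against 8.23) passed the filter through the T cell-low group, as did the erythroid Slc4a1 (88.4 against 9.89). The neutrophil list had a sum of 629 to 1733 scaled counts for T cell-low, against 41.5 to 211. Kupffer cell markers passed in 0 of 8 (5256 to 9064 against 2826 to 11359), and stellate cell or fibroblast markers in 0 of 6 (3290 to 4837 against 2326 to 3229). Endothelial markers rose in 2 of 6 (2182 to 2594 against 1882 to 2749) and erythroid markers in 2 of 6 (43163 to 98228 against 19681 to 51936). Of cholangiocyte or tumour epithelium markers 1 of 3 tested rose (292 to 456 against 125 to 232). T or NK cell markers had 1 tested of 6 (9.74 to 50.9 against 17.3 to 42.5), and B or plasma cell markers 1 of 4 (8.21 to 67.7 against 7.1 to 27.3), with 0 passing in each. Exocrine pancreas (1.63 to 12.8 against 0 to 14.4) and brown fat or muscle markers (0 to 11.3 against 0 to 18.9) had 0 tested, with Ckm and Myh6 at 0 in every library. Hepatocyte markers rose in 1 of 8, Apoa1. In the list of RNA quality and dissociation genes 3 of 14 rose and 0 fell (11387 to 25809 against 6952 to 11481). The part of these genes in the member results was not tested.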

How the data were processed

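Mouse liver RNA was sequenced in 10 libraries of transcript 3' ends (QuantSeq FWD), per the labels' protocols. The deposited table holds a signal per gene and library, which the authors made from gene counts by scaling to a common depth; STAR, DESeq2 and mm10 are named in the submitters' processing notes, without versions, and the counter and annotation are not given in the sources at hand. Only 2.74% to 3.58% of values above 0 are whole multiples (tolerance 0.001) of a library's most frequent low value, so reads were not recovered, depth is unknown and no counting interval was computed. Groups came from the sample titles.

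Genes with a mean of at least 10 were tested (11110) with limma 3.58.1 in R 4.3.3 on log2(scaled count + 1), trend on, group as the only term, Benjamini-Hochberg over all genes, called below 0.05; this scale understates changes of low genes. The model was tested on simulated data. Alternatives covered scaling, a robust fit, library weights, the filter, the pseudocount, a replicate block and leaving out single libraries. Chosen after seeing the data were fits without T cell-high 1, 3, 5 and 6 or without T cell-high 2 and 4, and a fit with the loess trend of values on transcript length (span 0.5) taken out of every library. Members and lists were chosen with earlier results of these data known. Genes were named by a rule: in each complex the called members (up to 6 of lowest adjusted p), the 2 tested members of highest mean and the isoform groups, every other member being open to naming, and from each list up to 3 called genes or that of highest mean; other genes were chosen after their values were seen. Positions and 3' ends (50-base words of the last 400 bases, shared from 20%) are from GENCODE vM21, promoters from RefSeq, GRCm38.p6. Plots used Python 3.11.15 and matplotlib 3.10.9.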

Additional observations from a re-analysis of the deposited data

Results flagged for a closer look

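Of 94 group comparisons searched for a library far from the others of its group, 2 gave one, and chance alone gives about 1 in 20. Cyc1 had 357 scaled counts in T cell-low 3, while T cell-low 1, 2 and 4 had 533 to 548. Atp5mpl had 2150 scaled counts (to 3 digits) in T cell-high 2, while the remaining 5 of that group had 1592 to 1730.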

How the results depend on the processing

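The main fit gave 9 members lower and 1 higher (7.39% and 5.39% of all genes tested). Equal totals gave 16 and 0 (9.61% and 3.79%), and library weights 22 and 1 (16.5% and 12.9%). No filter gave 2 and 0 (3.52% and 2.48%). Leaving out T cell-high 1, 3, 5 and 6 gave 0 and 0 (0% and 0%). Leaving out T cell-high 2 and 4 gave 22 and 0 (13.5% and 9.94%). Leaving out 1 library gave 0 to 18 lower and 0 to 1 higher (0.603% to 17.2% and 0.369% to 15.4% of all genes). The replicate block gave 0 lower and 0 higher, with 231 genes called in all against 1420. At an unadjusted p below 0.05 were 17 members and 2675 of 11110 genes. Same-numbered libraries had correlated deviations of 0.104, 0.211, -0.0988 and -0.151. Only number 2 correlated best with its own, so the numbers were not taken to pair them. The complex IV median was -0.229 without T cell-high 1, 3, 5 and 6.

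Of the 10 called members 0 changed sign in any alternative, and 14 others did. A call in these same libraries needs a change that is large against its SE, which favours a kept sign. The contrast is a description only. Without T cell-high 1, 3, 5 and 6 the log2 fold change was 0.19 for Sdhd, 0.133 for Cyc1, -0.185 for Uqcrh, 0.0648 for Uqcrq, -0.000967 for Cycs, -0.0542 for Cox4i1, 0.0585 for Cox6c, 0.0605 for Atp5b, -0.129 for Atp5d, 0.208 for Atp5l and 0.00302 for Atp5o. Without T cell-high 2 and 4 it was 0.0791 for Uqcrc1 and 0.116 for Atp5k. With library weights those were 0.13 and 0.0284, and Cyc1 was 0.000156 with the replicate block. With the length trend removed it was 0.0504 for Sdhd, 0.222 for Cyc1, 0.153 for Uqcrc1 and 0.0146 for Cox7a2. With 1 library left out it ran from -0.0762 to 0.13 for Cyc1, -0.222 to 0.148 for Uqcrc1, -0.027 to 0.286 for Cox4i1 and -0.24 to 0.0479 for Atp5k. The cause was not tested. Depth in reads is unknown and sets no limit here that could be computed.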
